A study of Gallus gallus with 12 samples.

Results

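RNA libraries of chicken embryonic limb tissue were compared in 2 sets, the 4 libraries with replicate number 2 or 6, presumed to come from female embryos, and the 8 with number 1, 3, 4 or 5, presumed male. Together they are the 12 libraries of the series. The sets were chosen by measured values of the same table, from genes that were high in the libraries numbered 2 and 6 and near 0 in the others, so levels between the sets are given as a description with no test. Sex is not among the labels.

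The tissue was interdigital region 3 of the hindlimb, the mesenchyme between forming digits, taken 12 h after a bead was implanted at Hamburger-Hamilton stage 30. The bead had been soaked in Noggin, a secreted inhibitor of bone morphogenetic proteins, or in phosphate-buffered saline (PBS), and the 2 beads were placed in opposite limbs. The set numbered 2 and 6 therefore held Noggin 2, PBS 2, Noggin 6 and PBS 6, and the set numbered 1, 3, 4 and 5 held 4 Noggin and 4 PBS libraries, so each set was balanced for the bead. No genotype, strain or transgene is given in the labels, and neither is whether the 2 libraries of a number came from the same embryo.

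In birds the male carries a pair of Z chromosomes and the female a Z and a W. Genes found only on the W are transcribed only in females. Birds have no counterpart to the silencing of a whole X chromosome in mammals, and compensation for the single Z of the female is incomplete and varies from gene to gene. Somatic cells of birds, those of the limb among them, carry a sex identity of their own beside that set by gonadal hormones. If each gene copy gave the same amount of RNA, a Z gene would have a ratio of 0.5 between female and male, and full compensation would give a ratio of 1.

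Levels are in CPM, or counts per 1000000 reads of a library. Libraries numbered 2 and 6 held 1793636 to 3513398 reads and detected 16636 to 18138 genes, and those numbered 1, 3, 4 and 5 held 1624309 to 3172663 reads and detected 16487 to 18727 genes. Of 30108 genes, 10210 had a mean of 5 CPM or more and were used. A count of 0 allows up to 0.854 to 1.67 CPM in libraries numbered 2 and 6 and 0.946 to 1.85 CPM in the others, for counting error only. The gene identifiers could not be paired with symbols or chromosomes (0 matched), so neither W and Z genes nor the markers of limb mesenchyme and of other cell types could be looked up, and the presumed sex and the labelled tissue were not checked with them. The bead labels of number 6 went against the other numbers. Of 1095 genes called for the bead in numbers 1 to 5 below, 960 (87.7%) had the opposite sign in Noggin 6 minus PBS 6, and so did 293 of the 307 with a log2 change of 1 or more. Number 6 was left out of the bead fit, which called 12 genes with all 12 libraries as labelled. The sets do not depend on which of these libraries had Noggin, and the counts and medians between the sets are also given without number 6.

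A gene was called when all 4 libraries of numbers 2 and 6 lay above, or all lay below, all 8 of numbers 1, 3, 4 and 5. By this rule 56 genes were higher in numbers 2 and 6, which is 0.548% of the genes, and 155 were lower, which is 1.52%. Both shares come from the contrast that chose the sets and carry no test. Such a rule also calls some genes when the sets do not differ, and their number was not estimated. At the limit of the call, the gap between the sets on the log2(CPM + 1) scale was 0.000356 in the last gene called lower and -0.00367, an overlap, in the next. For higher genes these gaps were 0.000115 and -0.00114. Of the same 10210 genes, 206 were higher and 350 lower without both libraries numbered 6. Without both numbered 2, 211 were higher and 450 lower. Fewer libraries make it easier not to overlap, also with no difference between the sets, and how many genes that gives was not estimated. The median ratio of numbers 2 and 6 over numbers 1, 3, 4 and 5 across all 10210 genes was 0.981.

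The higher genes split by size. A ratio of 4 or more was reached by 34 of the 56, called on/off genes here. The other 22 were moderately higher with ratios of 1.13 to 3.78 and a median of 1.39. These 22 are few among 10210 genes, and 4 of them stood in the runs of on/off genes described below. Whether they exceed what the call gives with no difference between the sets was not tested. The smallest on/off ratio was 4.89 and the largest below the limit 3.78, with no gene called higher between them. On/off genes had a median ratio of 39.4, with quartiles of 18.7 and 55.2. Their mean level was 13.8 to 598 CPM in numbers 2 and 6 (median 48.7 CPM) and 0.0903 to 10.5 CPM in numbers 1, 3, 4 and 5 (median 1.99 CPM).

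Summed over the 34 on/off genes, the level was 3953 CPM in Noggin 2, 3645 in PBS 2, 3919 in Noggin 6 and 3769 in PBS 6, against 63.9 CPM at the lowest, 86.3 at the median and 169 at the highest of the 8 other libraries. The 4 libraries lay close together and far above the rest. The 8 libraries held 1.67 to 4.42% of the mean of the 4, and no on/off gene had 0 reads in all 8 of them. Over those 8 libraries an on/off gene had 2 to 197 reads in total, and the 1 gene with 3 or fewer reads (2 reads) has no usable fold. PBS 1 was the library at the top, and it was the highest of the 8 in 18 of the 34 genes. The highest was PBS 3 in 6 genes, PBS 5 in 4, PBS 4 in 3, Noggin 1 in 2 and Noggin 4 in 1. The sum was higher with PBS than with Noggin in number 1 (169 and 94.2 CPM), 3 (87.4 and 63.9), 4 (94.6 and 74.2) and 5 (85.2 and 73.4). In numbers 2 and 6 it was higher in the library labelled Noggin. The cause was not tested. Without both libraries numbered 6, 35 genes were on/off. The ratio of number 6 to number 2 in the 34 genes had a median of 1.0 and a range of 0.697 to 1.40.

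**Figure D1:**
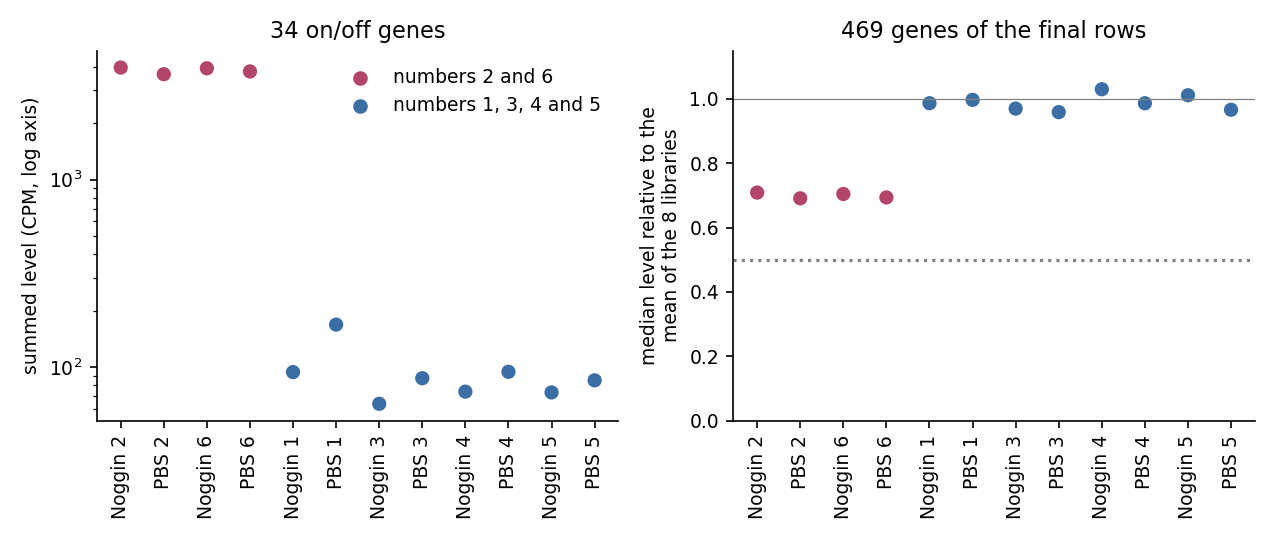
Left, summed CPM of the 34 on/off genes in each library on a log axis; right, the median level of the 469 genes of the final table rows relative to the mean of the 8 libraries, with lines at 1 and 0.5. The libraries numbered 2 and 6 (red) stand at 3645 to 3953 CPM on the left and at 0.691 to 0.709 on the right, and the libraries numbered 1, 3, 4 and 5 (blue) at 63.9 to 169 CPM and 0.959 to 1.03.

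The genes of the on/off kind that the naming rule picked were ENSGALG00010013702 and ENSGALG00010013706, printed by identifier only. ENSGALG00010013702 had 359 CPM in Noggin 2, 294 in PBS 2, 355 in Noggin 6 and 342 in PBS 6, and 1.98 CPM at the lowest, 3.30 at the median and 5.06 at the highest of the 8 other libraries. The sets did not overlap and its mean was 338 ± 30.1 CPM in numbers 2 and 6 (SD, n = 4) and 3.30 ± 1.0 CPM in the others (SD, n = 8), a ratio of 102. ENSGALG00010013706 had 338 CPM in Noggin 2, 287 in PBS 2, 316 in Noggin 6 and 315 in PBS 6, against 1.49 CPM at the lowest, 2.71 at the median and 5.35 at the highest of the others. Its ratio was 97.4, and the 8 ratios of a single number to another lay between 69.5 and 160. Each rested on few reads in the 8 libraries, 4 to 14 a library for ENSGALG00010013702 and 3 to 13 for ENSGALG00010013706.

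The on/off genes were not spread over the table. In the deposited row order, whose meaning is not stated, 32 of the 34 stood in 2 runs. The runs were bounded by on/off genes, and a gap of more than 60 rows between them began a new run. In rows 27837 to 27878 all 17 measured genes were on/off, with ratios of 12.1 or more. The gene with no usable fold is among them. A measured gene needed a mean of 5 CPM over all libraries, which on/off genes reached mainly through the libraries where they were high. Genes under that mean were not counted, so the share of on/off genes in a run is partly set by these rules. In rows 28291 to 28434, 15 of the 37 measured genes were on/off (8.70 to 102), 4 more were moderately higher, and the 22 that were not on/off had a median ratio of 1.39. The other 2 on/off genes stood alone, at row 3711 with a ratio of 9.28 and at row 29055 with 4.89. ENSGALG00010013702 and ENSGALG00010013706 stood in the later run.

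**Figure D2:**
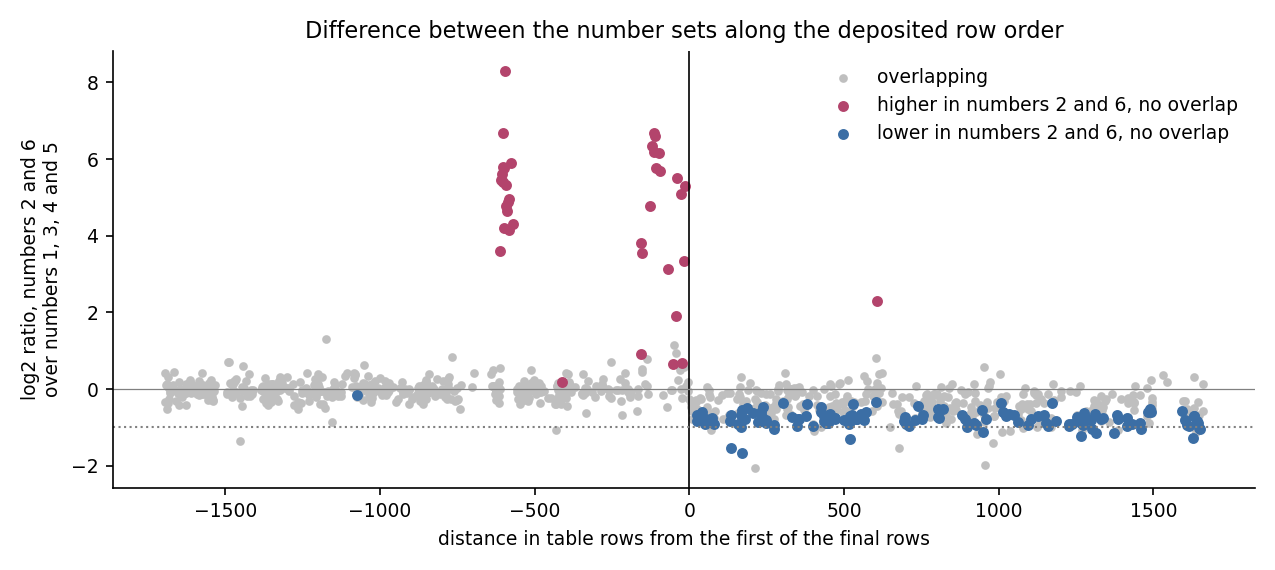
Log2 ratio of numbers 2 and 6 over numbers 1, 3, 4 and 5 for each measured gene in the last stretch of the table, against its distance in table rows from the first of the final rows (0); the dotted line is a ratio of 0.5. Genes called higher (red), most of them on/off, stand mainly in 2 narrow runs before 0, the topmost resting on 2 reads in the 8 libraries. Another on/off gene stands after 0. Genes called lower (blue) are 129 of the 469 measured genes of the final rows, and most genes before these rows lie near a log2 ratio of 0.

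Beginning 14 rows after the later run, from row 28448 to the end of the table at row 30108, the ratio was lower. This edge was placed by least squares on the ratios themselves, after they had been seen. When it was sought in number 2 over numbers 1 and 3 alone it fell at row 28456, and in number 6 over numbers 4 and 5, which share no library with them, at row 28443. The final 1661 rows held 469 of the measured genes, and 9741 stood before them. Of the 155 genes called lower, 129 (83.2%) were in the final rows, where they made up 27.5% of the measured genes. The other 26 were 0.267% of the genes before, and whether so small a share exceeds what the call gives with no difference was not tested. Of the final genes 425 (90.6%) had a ratio under 1, against 54.7% of the genes before. Whether the rows follow chromosomes was not tested.

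The median ratio in the final rows was 0.699, against 0.987 in the rows before, which is 0.708 times as much. The 10th and 90th percentiles were 0.528 and 0.994 in the final rows and 0.823 and 1.19 before them. By library, the median level of the final genes relative to the 8 libraries' mean was 0.709 in Noggin 2, 0.691 in PBS 2, 0.705 in Noggin 6 and 0.694 in PBS 6, against 0.959 at the lowest, 0.987 at the median and 1.03 at the highest of the 8 others. The 4 libraries lay together and apart from the 8. The rows before were at 0.962 to 0.990 in the 4 libraries and 0.968 to 1.01 in the 8. Taking each of numbers 2 and 6 over each of numbers 1, 3, 4 and 5, the 8 medians of the final genes were 0.684 to 0.728, and the same medians before the final rows were 0.973 to 1.01. The median was 0.703 without both libraries numbered 6, or 0.715 times that of the rows before, and 0.702 without both numbered 2.

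The sizes were then set against a ratio of 0.5, the size for a single gene copy against a pair with nothing made up. Among all 469 final genes 6 had a ratio under 0.4, 118 (25.2%) had 0.4 to 0.6, 202 (43.1%) had 0.6 to 0.8, 132 (28.1%) had 0.8 to 1.2 and 11 had 1.2 or more. At or under 0.5 were 27, and the median of 0.699 lay between 0.5 and 1. Before the final rows 83.4% of genes had a ratio of 0.8 to 1.2. In summed level the final genes reached 28184 to 29357 CPM in the libraries numbered 2 and 6 and 42244 to 45248 CPM in the others, a ratio of 0.652. In bulk tissue, fewer cells of a type and less RNA per cell cannot be told apart.

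**Figure D3:**
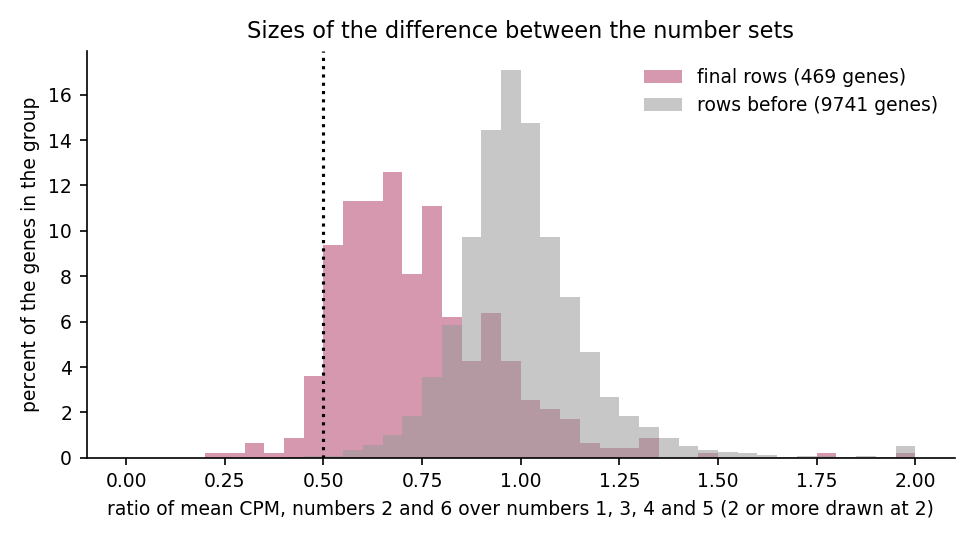
Share of genes by ratio of mean CPM, numbers 2 and 6 over numbers 1, 3, 4 and 5, for the 469 genes of the final rows (red) and the 9741 before (grey); the dotted line is 0.5. The final genes centre on 0.699, between 0.5 and 1, and the genes before them on 0.987.

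Genes called lower were nearer to 0.5, and a rule of no overlap favours large differences. Their median ratio was 0.590, with quartiles of 0.539 and 0.660 and extremes of 0.282 and 0.961. Of the 155, 3 had a ratio under 0.4, 79 (51.0%) had 0.4 to 0.6, 63 (40.6%) had 0.6 to 0.8 and 10 had more. The 129 in the final rows had a median of 0.583 and a median level of 44.6 CPM, and the 26 before them a median of 0.777. Final genes that were not called had a median of 0.782. The call found more of the abundant genes, reaching 4.44% of final genes at 5 to 10 CPM and 54.2% of those at 100 CPM or more, and the median ratio over all final genes was 0.782 and 0.626 at these levels. Without both libraries numbered 6 the median of the genes called lower was 0.626, over a larger set of 350 genes that met an easier rule. The median of all final genes was then 0.703, against 0.699 with number 6.

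The lower genes picked by the naming rule were ENSGALG00010001252 and ENSGALG00010007437, both in the final rows. ENSGALG00010001252 had 14.5 CPM in Noggin 2, 6.69 in PBS 2, 14.9 in Noggin 6 and 18.1 in PBS 6, against 25.8 CPM at the lowest, 32.9 at the median and 41.6 at the highest of the 8 others. The sets did not overlap, but the 4 libraries differed among themselves, with PBS 2 the lowest. Its ratio was 0.412 and the ratios of single numbers ran from 0.288 to 0.560, around 0.5. ENSGALG00010007437 had 23.3 CPM in Noggin 2, 21.7 in PBS 2, 23.1 in Noggin 6 and 26.8 in PBS 6, against 44.3 CPM at the lowest, 52.6 at the median and 60.7 at the highest of the others. Its ratio was 0.454, with single-number ratios of 0.395 to 0.499, all under 0.5. Both genes were picked for the largest differences at 20 CPM or more, so they are extremes and not typical sizes. Of the 469 final genes, 4 (0.853%) had single-number ratios wholly below 0.5.

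**Figure D4:**
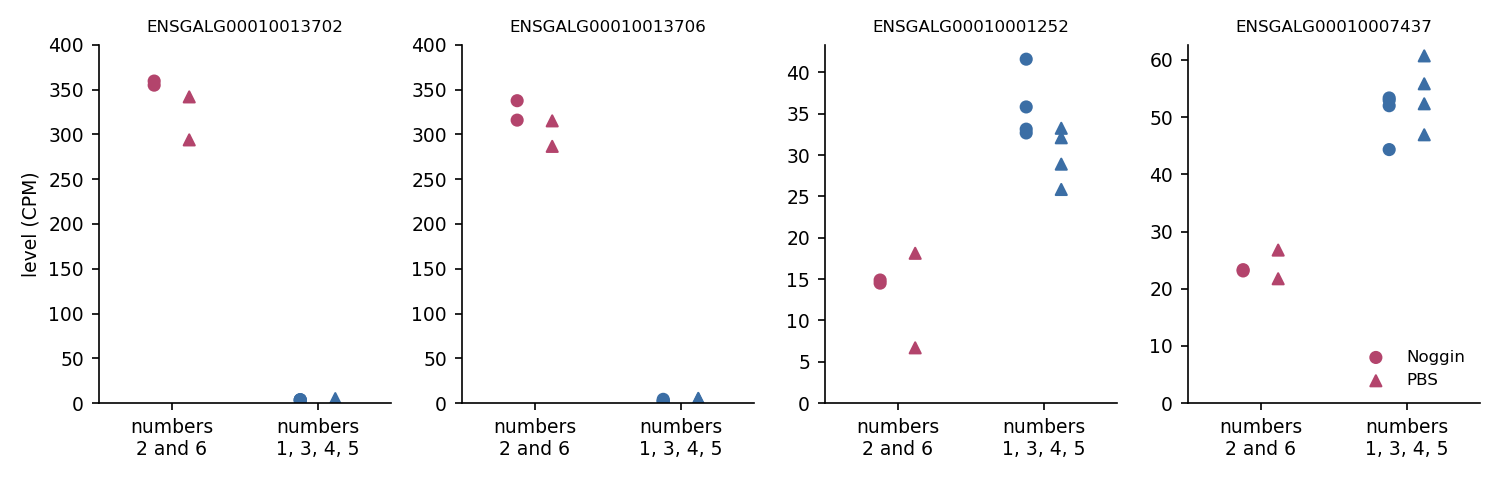
CPM of the 4 named genes in each library, Noggin as circles and PBS as triangles, with the libraries numbered 2 and 6 (red) left of those numbered 1, 3, 4 and 5 (blue). ENSGALG00010013702 and ENSGALG00010013706 stand near 0 in the blue libraries, and ENSGALG00010001252 and ENSGALG00010007437 lie lower in the red libraries without overlap.

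Counting error is smaller in abundant genes, and 107 final genes had 50 CPM or more. In these the 8 single-number ratios of a gene lay wholly above 0.5 in 83 genes (77.6%) and spanned 0.5 in 24, and in 0 genes did they lie wholly below it. They lay wholly below 1 in 82 genes (76.6%), and above 0.5 and below 1 at once in 60 (56.1%). In the 2592 genes of that level before the final rows, the ratios lay wholly below 1 in 253 (9.76%) and spanned 1 in 2201 (84.9%). Among the 155 genes called lower, 64 (41.3%) had single-number ratios that spanned 0.5, 88 (56.8%) lay above it and 3 below it.

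Sizes were also read in libraries that had not chosen the genes. Of the 10210 genes, 734 were lower without overlap in number 2 against numbers 1 and 3. They were 208 of the 469 final genes and 526 of the 9741 before. With so few libraries, genes meet this rule more easily with no difference between the sets, and how many do was not estimated. These 208 had a median ratio of 0.593 where they were chosen and 0.622 in number 6 over numbers 4 and 5, with quartiles of 0.535 and 0.709. The 526 chosen before the final rows had a median of 0.736 where chosen and 0.976 in the other numbers. Chosen in number 6 against 4 and 5, 219 of the 469 final genes had 0.592 and then 0.639 in number 2 over 1 and 3. The 840 chosen of the 9741 before had 0.742 and then 0.996. In the libraries that had not chosen them, the final genes were again lower at the median (0.622 and 0.639) and the genes before them near 1. The edge of the final rows was placed on the ratios over all libraries, and numbers 2 and 6 were chosen by the same values. The split into final and earlier genes is therefore not independent of the libraries read. With the edge sought only in the choosing numbers, all final genes had a median of 0.687 in number 6 over 4 and 5. In number 2 over 1 and 3 it was 0.703.

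In the final rows a gene's size in number 2 resembled its size in number 6. Across the 107 final genes of 50 CPM or more, the log2 ratio of number 2 over 1 and 3 and that of number 6 over 4 and 5 had a Pearson r of 0.63 and a Spearman rho of 0.69. This is across genes, which are not independent replicates, and the pairs share no library. Across the 2592 genes of that level before the final rows r was 0.69 and rho 0.03. That r rested on the 7 on/off genes among them, and across the other 2585 genes r was -0.06 and rho 0.02. The 35 final genes with a ratio under 0.6 in number 2 had a median of 0.543 there and 0.547 in number 6, the 37 with 0.6 to 0.8 had 0.666 and 0.644, and the 35 with 0.8 or more had 0.891 and 0.833.

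**Figure D5:**
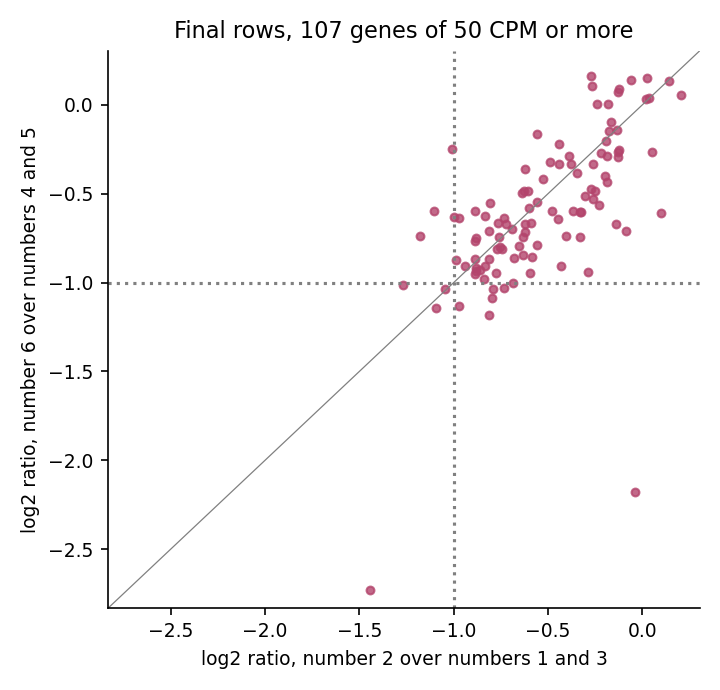
Log2 ratio of number 2 over numbers 1 and 3 (x) and of number 6 over numbers 4 and 5 (y) for the 107 final genes of 50 CPM or more; the solid line is equality and the dotted lines are a ratio of 0.5. The points lie along the line of equality (Spearman rho 0.69), with most between 0.5 and 1 on both axes.

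Along the final rows, in consecutive windows of 250 rows, the median ratio was 0.695, 0.740, 0.758, 0.711, 0.695, 0.657 and 0.610, over 84, 87, 66, 80, 57, 67 and 28 genes, the last window being shorter. The 114 windows before the final rows, with on/off genes left out, had medians of 0.916 to 1.06. Each of the 7 final windows, which kept their on/off gene, lay below all of them. The start of the final windows was placed on these same ratios. The only higher gene of the final rows was the on/off gene at row 29055, 607 rows after their start. It had 40.6 to 60.8 CPM in the 4 libraries numbered 2 and 6, and 3.96 CPM at the lowest, 9.10 at the median and 21.8 at the highest of the 8 others. This gene was thus on/off only by its ratio of 4.89 and was not near 0 in the 8. The 20 measured genes nearest to it had a median ratio of 0.938, with 1 called lower and 0 higher.

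The bead, which did not enter the choice of sets, gave a test on these genes. In numbers 1 to 5, limma called 1095 of 10210 genes (10.7%) between Noggin and PBS at an adjusted p of 0.05, 684 higher and 411 lower with Noggin. Of the 469 final genes it called 33 (7.04%; 22 higher, 11 lower), and it called 0 of the 155 lower genes and 0 of the 56 higher genes, the lowest limma adjusted p among them being 0.0597. Over all genes 2330 had an unadjusted p under 0.05. Without a block, the difference between number 2 and the others counts as spread in these genes. With the replicate block it called 1479 genes (14.5%), with 69 (14.7%; 47 higher, 22 lower) of the final genes, 14 (9.03%) of the lower genes and 1 (1.79%) of the higher genes. Without number 2 the fit with no block called 957 genes (9.37%), with 47 (10%) of the final genes, 9 (5.81%) of the lower genes and 1 (1.79%) of the higher genes. With the set as a term, an alternative chosen after seeing the data, it called 1241 genes (12.2%), with 62 (13.2%), 14 (9.03%) and 1 (1.79%). The share of final genes called was thus below that of all genes in numbers 1 to 5 without a block and near it in the other 3 fits. The shares of the lower and the higher genes were below that of all genes in each of the 4 fits, and a call by no overlap between the sets disfavours genes that differ by bead. The 34 on/off genes among the higher ones had a median of 1.99 CPM in numbers 1, 3, 4 and 5. Many were thus near the 0.946 to 1.85 CPM that a count of 0 allows there, where a bead difference could hardly be called. Without number 2 only such libraries were left, so the low share is no result about the on/off genes. This limit does not cover the 22 moderately higher genes, which summed to 12943 to 16752 CPM in numbers 1, 3, 4 and 5. None of these was called in the 4 fits, but the call by no overlap disfavours genes that differ by bead. With the replicate block the 1 higher gene was the on/off gene at row 29055. It had a log2 change of -0.88 ± 0.229 with Noggin in that fit (SE; limma adjusted p 0.00434). It did not pass in numbers 1 to 5 without the block (limma adjusted p 0.552). Without number 2, and with the set as a term, the 1 higher gene called was also an on/off gene, lower with Noggin. The labels do not say that the numbers are separate embryos, and the p-values then cover only how these libraries scatter, which may be technical.

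The bead difference in number 2 was compared with that in numbers 1, 3, 4 and 5 by an interaction term. limma called 8 genes (0.0784%), 4 higher and 4 lower, with 582 at an unadjusted p under 0.05. None was among the 469 final genes (lowest limma adjusted p 0.559) or the genes called between the sets (0.737). Number 2 is a single pair here and is assumed to vary like the others, so the interaction does not show that the bead acts alike in the sets.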

How the data were processed

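RNA from 12 libraries was made with Lasy-Seq version 1.1 from 180 ng of total RNA, per the labels' protocols. Salmon, BWA 0.7.17-r1188 and fastp 0.21.0 are the tools listed, per the submitters' processing notes. The genome build, the annotation and how reads were counted are not stated. The deposited values were natural log (ln) of CPM + 1, read from the values: the exponential minus 1 added to 1000000 in each column, and all values above 0 were whole reads within 0.001 read. Libraries were grouped by the replicate number in the titles.

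The members and lists were chosen with earlier results of these data known. A gene needed a mean of 5 CPM. The ratio is the mean of number means, 2 and 6 over 1, 3, 4 and 5. Named genes were the 2 higher and 2 lower with the largest log2 ratio at 20 CPM or more; lists that need symbols (sex chromosomes, cell types) could not be used, as 0 identifiers matched the RefSeq table. Bead tests used limma 3.58.1 in R 4.3.3 on log2(CPM + 1), pseudocount 1, scaled by trimmed means of M-values (30% and 5% trimmed), with trend and robust shrinkage and Benjamini-Hochberg adjustment at 0.05, on numbers 1 to 5. The fits were tested on simulated data. Those reads were drawn separately for each library, with no likeness within a number, so the test does not cover such likeness. Libraries of the same number deviated together in numbers 1 to 5 (correlation 0.102 to 0.436; at most 0.0299 with other numbers), so the numbers pair the libraries there. With number 6 added the lowest was -0.125 and for 8 of 12 libraries the highest correlation was within the number. The main bead fit has no replicate block, and the fit with it is given beside it. No 2 libraries were alike within sampling noise (lowest chi-square per degree of freedom 2.83 over 66 pairs). Other scalings, filters, pseudocounts and left-out libraries were tried as alternatives.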

Additional observations from a re-analysis of the deposited data

Results flagged for a closer look

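In 16 groups of library values examined, 1 held a library far from the others by Dixon's rule, which sets the gap to the nearest library against the whole range: PBS 1 had 169 summed CPM of on/off genes, where the other 7 libraries of numbers 1, 3, 4 and 5 had 63.9 to 94.6 CPM. By chance about 1 in 20 such groups would hold such a library.

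limma's interaction test called 8 genes at an adjusted p of 0.05 for a bead difference in number 2 unlike that in numbers 1, 3, 4 and 5, with log2 differences of 0.66 to 3.58 in size. Number 2 is a single pair with no spread of its own, assumed to vary like the others, and the count was 3 with no replicate block and 0 with all 12 libraries as labelled. The 8 were 0.0784% of the 10210 genes. None was a gene of the final rows or a gene called between the sets, where so small a share leaves few or none to be found.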

How the results depend on the processing

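Leaving out libraries makes non-overlap easier, and so does averaging the libraries of a number, which leaves fewer values to compare. The counts of genes called between the sets therefore rose by construction. Of 10210 genes, 206 were higher and 350 lower without both libraries numbered 6, and 211 and 450 without both numbered 2. How many of these the call gives with no difference between the sets was not estimated. Noggin libraries only gave 634 and 890, PBS libraries only 648 and 998, and means per replicate number 597 and 1044. The median ratio of the genes called lower was then 0.626, 0.641, 0.716, 0.689 and 0.780. Leaving out each library in turn gave 60 to 90 higher genes, 165 to 232 lower genes and a median of 0.589 to 0.621. With a mean of 20 CPM or more, 28 genes were higher and 15 on/off. The median ratio of the final rows was 0.716 with TMM scaling, 0.718 at a mean of 1 CPM or more, 0.626 at 100 CPM or more and 0.724 on log2(CPM + 1) means, and 0.7001 to 0.716 without each library in turn. Relative to the rows before, it was 0.730, 0.633 and 0.731 in the last 3 of these settings and 0.705 to 0.724 without each library. Sizes read in other numbers were 0.639 with the numbers exchanged and 0.640 with TMM scaling. The bead count was 12 with all 12 libraries as labelled, 1479 with the replicate block and 792 to 957 without each number. Without number 2, 9 of the 155 lower genes were called, and with the robust option off 1. The interaction count was 5 at pseudocount 4, 15 with the robust option off, 0 with all 12 libraries and 3 with no replicate block. The cause of the other changes was not tested. All 84 alternative values of the named genes moved by less than the SD of their single-number ratios, and 0 reversed. This is a weak check, since these genes were picked for the largest ratios. The CPM filters and the means per replicate number also cannot change a gene's ratio. The 8 libraries' few reads limit on/off ratios, and counting error is largest in genes near 5 CPM.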
